A study of Homo sapiens with 74 samples.

Results

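Chromosome 19 carries several large clusters of zinc-finger genes. Chromatin accessibility was examined here in 263 regions of those clusters, out of 145536 regions in the deposited knockout table of HAP1 cells. A region was a member if it lay on hg19 chromosome 19 in 1 of 5 windows, called clusters 1 to 5 below. Cluster 1 runs from 19.8 to 24.6 Mb and holds 42 regions, and cluster 2 runs from 36.5 to 38.5 Mb and holds 58. Cluster 3 (44.2 to 45 Mb), cluster 4 (52.4 to 54 Mb) and cluster 5 (56.5 to 59.1 Mb) hold 27, 39 and 97 regions. The choice used position alone, and all 263 regions passed the filter on low counts in both tables.

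HAP1 is a near-haploid human cell line derived from chronic myeloid leukaemia. ATAC-seq, in which a transposase inserts adapters into open DNA, was run on 26 knockout clones that each lack 1 of 22 subunits of the BAF (SWI/SNF) complexes, with 2 libraries per clone. The knocked-out genes were ACTB, ARID1A, ARID1B, ARID2, BCL11A, BCL11B, BCL7A, BCL7B, BRD7, BRD9, DPF1, DPF2, DPF3, PBRM1, PHF10, SMARCA2, SMARCA4, SMARCC1, SMARCC2, SMARCD1, SMARCD2 and SMARCD3. SMARCA4, ARID1A, ARID1B and BCL7B had 2 clones each and the other 18 genes 1 clone each, so for those 18 the effect of the gene and that of the clone cannot be told apart. Set 1 holds wild-type replicates 1 and 2 beside 23 clones, while set 2 holds ARID1B clone 582_5, BCL7B clone 4278_10, SMARCC2 clone 6062_10 and wild-type replicates 5 and 6. A second table held 8 groups of 2 libraries with a knockdown of SMARCA4, of ARID2, of both (wild-type cells only) or of a control, in HAP1 cells that were wild type or lacked ARID2 or SMARCA4. All knockdown comparisons are made against cells that also received a knockdown, and the wild-type HAP1 line is the common background of every group.

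Most genes of these clusters encode proteins with arrays of C2H2 zinc fingers, and many carry a KRAB domain. KRAB zinc-finger proteins bind DNA and recruit the corepressor TRIM28, which brings in enzymes that deposit the repressive mark H3K9me3, largely on transposable elements. The clusters arose by tandem duplication, their gene bodies carry H3K9me3 in many cell types, and their promoters usually remain open. BAF complexes use the energy of ATP, through SMARCA4 or SMARCA2, to slide or evict nucleosomes. ARID1A and ARID1B define canonical BAF, ARID2, PBRM1, BRD7 and PHF10 define PBAF, and BRD9 defines a non-canonical form.

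In RefSeq's gene table for GRCh38.p14, 250 of 1451 protein-coding genes on chromosome 19 have a ZNF name, which is 48.4% of the 517 such genes in the genome. The files pair no region with a gene and that table is of a later build than the files. Regions are therefore given by their hg19 position and named by their start in Mb. Whether a given member lies at a zinc-finger gene or at another gene within the windows was not determined. Whether starts count from 0 or 1 is not given in the sources used here.

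The regions of the clusters were sparse, wide and accessible. There were 22.3 regions per Mb in the 11.8 Mb of the 5 windows and 73 per Mb in the other 43.1 Mb of chromosome 19, after leaving out a stretch of 4 Mb with no region. Density was lowest in cluster 1 (8.75 per Mb), which lies beside the centromere, and was 24.4 to 37.3 per Mb in the other clusters. Widths had a median of 827 bp in the clusters, 658 bp on the rest of chromosome 19 and 622 bp over all regions. Accessibility is given as CPM (counts scaled to a common total of reads in regions, with TMM scaling between libraries) averaged over the 56 knockout-table libraries, and per kb where regions are compared with each other. Its median was 11.4 CPM per kb in the clusters, 8.37 on the rest of chromosome 19 and 5.32 over all 145532 regions tested. Of the 263 members, 154 (58.6%) were among the highest 25% of all regions by CPM per kb, against 48.3% on the rest of chromosome 19. Above the median of all regions the shares were close, at 72.6% of members and 71.3% of the rest of chromosome 19. The highest 5% of all regions held 15.6% of members, against 11.9% of the rest of chromosome 19. That share was 19%, 15.5%, 3.7%, 2.56% and 22.7% in clusters 1 to 5.

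**Figure D1:**
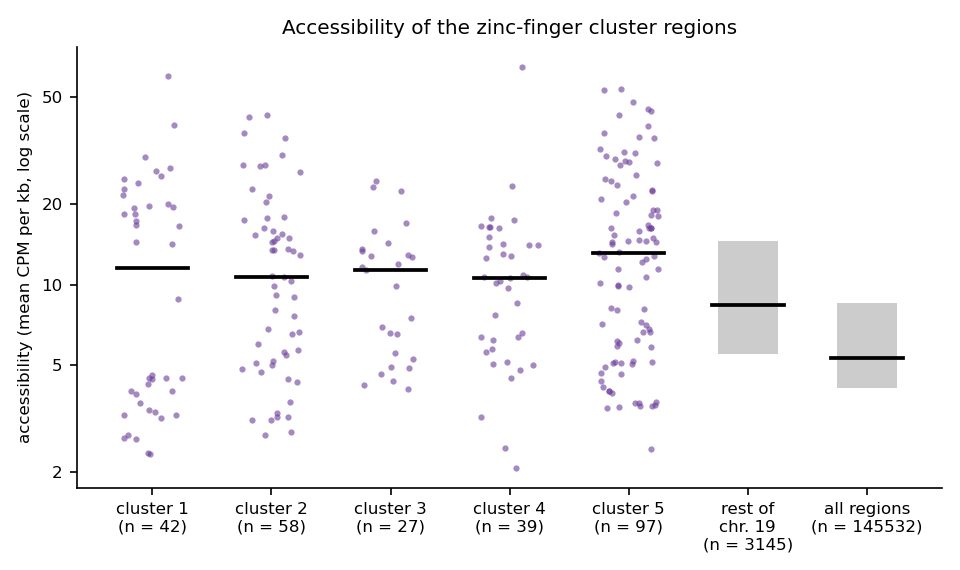
Accessibility of the regions of clusters 1 to 5 (1 point per region, mean CPM per kb over 56 libraries, log scale), with black lines at the medians and grey boxes for the quartiles of the rest of chromosome 19 and of all regions. Medians were 10.6 to 13.1 CPM per kb in the 5 clusters, 8.37 on the rest of chromosome 19 and 5.32 over all regions, and cluster 1 splits into 22 regions at 8.81 or more and 20 at 4.62 or less.

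Cluster 1 held 2 kinds of region, with none between 4.62 and 8.81 CPM per kb. The 22 regions above that gap had a median of 19.8 CPM per kb, and the 20 below it a median of 3.52. The strongest region of cluster 1 was chr19:19887042-19887750 (lowest 28.2, median 42, highest 57.4 CPM over 56 libraries), and that of cluster 2 was chr19:36544808-36546535 (42.1, 60.5 and 79.3 CPM). In cluster 5 it was chr19:59084010-59085183, with 46.8, 62.8 and 81.1 CPM. Of the 5 strongest regions, those of clusters 2, 3 and 4 were called in no knockout, and those of clusters 1 and 5 in the SMARCA4 knockout alone.

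At the window borders, the outermost members averaged 2.01 to 28.9 CPM and the nearest regions outside 1.42 to 25.2 CPM.

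A library of set 1 had 7855389 to 12422345 counts. Those of set 2 had 5085811 to 7331537, and those of the knockdown table had 5355899 to 12432292. A member's median count was 88 to 164, 61 to 85 and 55 to 195 in those 3 sets of libraries. The 2 libraries of a group correlated across the 263 members at r = 0.926 to 0.978 in the knockout table and 0.935 to 0.966 in the knockdown table, on log2 CPM. The share of all counts that fell in the clusters was 0.308% to 0.414% in set 1. Library 1 of the SMARCA4 knockout with ARID2 knockdown had a share of 0.497%, against 0.365% in library 2 of that group. The SD between replicate libraries of the members' median, taken relative to all regions on the log2 scale, was 0.082 in the knockout table and 0.33 in the knockdown table. Nothing in the labels states separate cultures for the 2 libraries of a group, so the p-values cover the spread of libraries, which may be technical. With the files giving no gene for a region, accessibility at the targeted genes was not examined.

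SMARCA4, one of the 2 alternative ATPases of BAF complexes, gave the most calls. In its knockout 34 of the 263 regions rose and 14 fell (edgeR quasi-likelihood test, adjusted p under 0.05 over all regions, n = 4 knockout and 2 wild-type libraries). That is 12.9% higher and 5.32% lower in the clusters, against 8.00% higher and 13.9% lower over all regions tested. On the rest of chromosome 19, 15.4% were higher and 1.97% lower. The median log2 fold change was 0.20 in the clusters, 0.27 on the rest of chromosome 19 and 0.0071 over all regions. In the authors' normalized values it was 0.16 in the clusters and 0.34 over all regions. Relative to all regions the clusters thus lay above by 0.19 in the counts and below by 0.18 in the authors' values. The authors' values called 29 members higher and 5 lower, given here without the share of all regions. The clusters took 0.398% and 0.396% of counts in the 2 SMARCA4 clones, against 0.362% in wild type of set 1. Among regions at or above the median of all regions in average log2 CPM, 191 of them members, 16.2% of members were higher and 5.24% lower, against 13.3% and 21.2% of all regions.

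Most of the increases were small. Their median log2 fold change was 0.57 and 3 of the 34 reached 1, against a median of 0.77 and 30.9% reaching 1 over all regions called higher. The 34 regions were also strongly accessible, with a median of 24.2 CPM per kb, while the 14 that fell had a median of 7.44 and the 215 not called 10.7. The count depended on single libraries. Wild-type replicate 2 left out gave 5 higher and 8 lower, and wild-type replicate 1 left out gave 17 and 8. Without replicate 2 of clone 4-2878 it was 11 and 13, and without replicate 2 of clone 6-2878 it was 13 and 14. Tested alone, clone 4-2878 had 22 regions higher and 8 lower and clone 6-2878 had 19 and 9, against 6.30% and 11.2%, and 5.48% and 10.3%, of all regions. A test between the 2 clones called none of the 263 regions, against 0.224% of all regions.

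**Figure D2:**
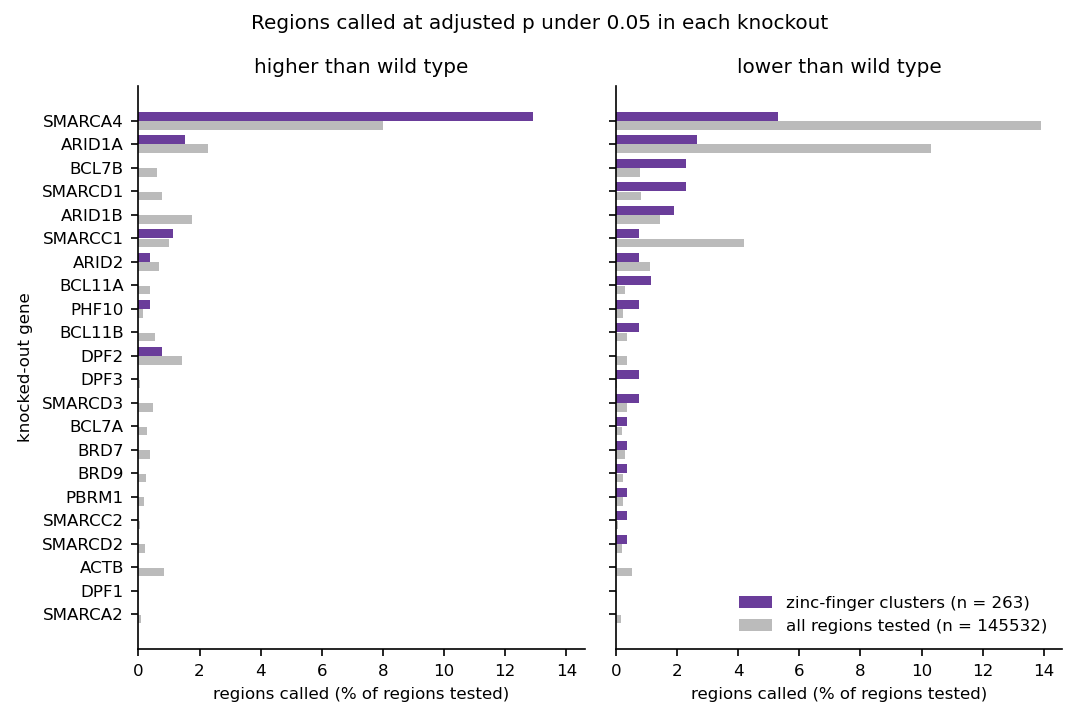
Percent of regions called higher (left) and lower (right) than wild type in each of 22 knockouts, for the 263 cluster regions (purple) and all 145532 regions tested (grey). In the SMARCA4 knockout the clusters had 12.9% higher and 5.32% lower, against 8.00% and 13.9% over all regions, and in the ARID1A knockout 1.52% and 2.66%, against 2.27% and 10.3%.

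Cluster 1 held 14 of the 34 increases and 1 of the 14 decreases in the SMARCA4 knockout. Its median log2 fold change was 0.46, and those of clusters 2 to 5 were 0.11 to 0.22; the difference between clusters was not tested. All 22 of its accessible regions had a positive log2 fold change and 12 of them were called, and 11 of its 20 weak regions were positive, with 2 called higher and 1 lower. With any 1 library of the comparison left out, the median of cluster 1 was 0.32 to 0.49. Among the 5 largest increases with groups apart and above-median accessibility, 3 lie in cluster 1, at chr19:21511514-21512498, chr19:23940916-23942033 and chr19:24097321-24097945. The 21.51 Mb region had 23.6, 30.1, 31.2 and 31.7 CPM in SMARCA4 knockout libraries and 20.6 and 11.7 CPM in wild-type libraries. Its log2 fold change was 0.84 ± 0.18 (SE; adjusted p = 0.000124). Groups that do not overlap were a condition for naming a region. Without wild-type replicate 2 the value was 0.50 and the call was lost. Wild type of set 2 had 24.4 and 22.1 CPM at this region, which overlaps the knockout libraries. The 23.94 Mb region had 19.1, 23.1, 30.6 and 28.4 CPM in the knockout libraries, against 16.8 and 12.3 CPM in wild type (log2 fold change 0.79, adjusted p = 0.00052). The 24.1 Mb region had 22.6 to 27.6 CPM in the knockout and 17.5 and 12.8 CPM in wild type. Both calls were also lost without wild-type replicate 2. Wild type of set 2 had 20.5 and 14.4 CPM at 23.94 Mb and 17.3 and 16.7 CPM at 24.1 Mb. In the knockdown table, the SMARCA4 knockout under control knockdown called none of these 3 regions. Their log2 fold changes there were -0.043, 0.088 and -0.12. The median there was 0.086 in the 22 accessible regions of cluster 1 and 0.38 in the 20 weak ones.

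The largest increase in the clusters in the SMARCA4 knockout was at chr19:58661550-58662464 in cluster 5. This 58.66 Mb region had 12.9, 10.3, 10.8 and 8.06 CPM in SMARCA4 knockout libraries, against 3.49 and 3.11 CPM in wild type (log2 fold change 1.65 ± 0.29, adjusted p = 1.18e-06). The value was 1.52 to 1.74 with any 1 library left out. Clone means at this region ran from 1.65 CPM (BCL11B) to 11.8 CPM (SMARCA4 clone 4-2878). Among clones of other genes than SMARCA4 and ARID1A, ARID1B clone 582_5 (8.66 CPM) and DPF1 (8.17 CPM) were highest. DPF1 was not called (log2 fold change 1.30, edgeR adjusted p = 0.105). BRD7, ARID2 and DPF2 averaged 6.39, 6.22 and 5.75 CPM, also without a call. The region at chr19:37262330-37262883 had 4.71 to 5.85 CPM in the knockout and 2.23 and 3.71 CPM in wild type (log2 fold change 0.85, adjusted p = 0.0362), and the call was lost in 4 of 6 fits that left out 1 library.

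Cluster 2 held 9 of the 14 decreases, among its 58 regions, where 13.9% of all regions were lower, and whether their positions differ from those of other members was not tested. Of the 9, 6 lay within the last stretch of the cluster, between 38422474 and 38495617. This run was picked out after its values were seen, and whether it lies at zinc-finger genes was not determined. At chr19:38422474-38423232 the SMARCA4 knockout libraries had 4.46, 3.59, 5.45 and 5.08 CPM and the wild-type libraries 11 and 8.96 CPM (log2 fold change -1.10 ± 0.24, adjusted p = 9.17e-05). At chr19:38494027-38494693 they had 2.36 to 3.64 CPM, against 5.82 and 7.89 CPM in wild type (log2 fold change -1.10, adjusted p = 0.000707). The other 4 called regions of the stretch had log2 fold changes of -0.65 to -1.64. Of the 5 others in the stretch, 3 had positive values and none was called.

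The lowest value was at chr19:58398590-58399364 in cluster 5, the 58.4 Mb region. It had 3.35, 3.48, 3.67 and 3.97 CPM in SMARCA4 knockout libraries, against 11.5 and 11.7 CPM in wild type (log2 fold change -1.68 ± 0.23, adjusted p = 6.78e-10). The 2 groups were far apart, and the value was -1.67 to -1.76 with any library left out. At chr19:57778495-57779213 the knockout had 1.74, 3.81, 1.56 and 1.54 CPM and wild type 4.56 and 5.38 CPM (log2 fold change -1.23, adjusted p = 0.000818). At chr19:36737300-36738336 the knockout had 2.23 to 3.70 CPM and wild type 4.17 and 7.53 CPM, with a log2 fold change of -0.95 (adjusted p = 0.00903). That decrease was -0.48 and not called without wild-type replicate 2.

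ARID1A, a defining subunit of canonical BAF, had 4 regions higher and 7 lower in its knockout (n = 4 knockout and 2 wild-type libraries). These are 1.52% and 2.66% of the members, against 2.27% and 10.3% of all regions tested. All 4 increases and 6 of the 7 decreases were also called in the SMARCA4 knockout, in the same direction; both knockouts were set against the same 2 wild-type libraries. The count was 5 without wild-type replicate 2 and 7 without replicate 2 of clone 10-618. Its median log2 fold change was 0.13 in the clusters and 0.016 over all regions, and 0.11 and 0.22 in the authors' values, so its sign relative to all regions also turned. The authors' values called 16 members higher and 6 lower, given here without the share of all regions.

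The 58.66 Mb region had 9.38, 9.88, 7.85 and 10.6 CPM in ARID1A knockout libraries, against 3.49 and 3.11 CPM in wild type (log2 fold change 1.5 ± 0.29, adjusted p = 2.04e-05). The 58.4 Mb region had 3.13, 4.03, 2.62 and 3.87 CPM in ARID1A knockout libraries and 11.5 and 11.7 CPM in wild type (log2 fold change -1.79 ± 0.23, adjusted p = 2.14e-10). At both regions no knockout library came near the wild-type values, and both ARID1A clones were called on their own. In cluster 2, chr19:38432030-38433160 had 2.41 to 4.69 CPM in the knockout and 9.41 and 8.96 CPM in wild type (log2 fold change -1.46, adjusted p = 1.79e-06). Close to it, chr19:38468588-38469294 had 2.1 to 3.14 CPM in the knockout and 6.5 and 7.77 CPM in wild type (log2 fold change -1.46, adjusted p = 1.42e-05). Both lie in the stretch at the end of cluster 2, and both kept their call with any library left out. At chr19:53219594-53220322 in cluster 4 the knockout had 1.79 to 2.72 CPM and wild type 4.27 and 5.38 CPM (log2 fold change -1.03, adjusted p = 0.0141). The 57.78 Mb region had 2.12, 4.15, 1.47 and 1.99 CPM in the knockout and 4.56 and 5.38 CPM in wild type (log2 fold change -1.08, adjusted p = 0.00538). Of the increases, chr19:19932227-19932893 had 17.6 to 22.2 CPM in the knockout and 13.4 and 13.3 CPM in wild type (log2 fold change 0.60, adjusted p = 0.0162), a call lost in 3 of 6 fits that left out 1 library. The increase at chr19:58897742-58898836 was small, with 33, 32.1, 33.5 and 43.3 CPM in the knockout and 24.3 and 26.9 CPM in wild type (log2 fold change 0.47, adjusted p = 0.034), and its call was lost in 5 of those 6 fits. The 4 higher calls of ARID1A came down to 1 when either wild-type library or replicate 2 of clone 10-618 was left out. The calls at 53.22 and 57.78 Mb were each lost in 2 of 6.

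SMARCC1, a core scaffold subunit, had 3 regions higher and 2 lower in its knockout, 1.14% and 0.76% of members, against 1.00% and 4.19% of all regions. Both decreases were the 38.43 and 38.47 Mb regions at the end of cluster 2. The 38.43 Mb region had 4.82 and 3.78 CPM in SMARCC1 knockout libraries and 9.41 and 8.96 CPM in wild type (log2 fold change -1.10, adjusted p = 0.00767). The 38.47 Mb region had 3.74 and 2.62 CPM in the knockout and 6.5 and 7.77 CPM in wild type (log2 fold change -1.16, adjusted p = 0.0109). Each of these decreases was lost in 2 of 4 fits that left out 1 library, SMARCC1 replicate 2 among them. The largest increase was at chr19:58739616-58740634, with 11.7 and 10.8 CPM in the knockout, against 3.2 and 6.45 CPM in wild type (log2 fold change 1.24, adjusted p = 0.00234). Without wild-type replicate 1 it was 0.80 and not called. Left out in turn, wild-type replicates 1 and 2 and SMARCC1 replicate 2 reduced the count to 1, 2 and 2.

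ARID2, the subunit that defines PBAF, had 1 region higher and 2 lower in its knockout, 0.38% and 0.76% of members, against 0.682% and 1.11% of all regions. Its strongest change was at chr19:58175497-58176121 in cluster 5. This 58.18 Mb region had 0.211 and 1.62 CPM in ARID2 knockout libraries, against 5.82 and 4.9 CPM in wild type (log2 fold change -2.52 ± 0.44, adjusted p = 3.17e-05). Without ARID2 replicate 1 the value was -1.73 and was not called. The 3 clones lowest at this region lacked the PBAF subunits ARID2, PBRM1 and BRD7. PBRM1, a bromodomain subunit, had 2.03 and 0.794 CPM in its knockout (log2 fold change -1.91, adjusted p = 0.00455), its 1 call among members, which was lost without wild-type replicate 1 (-1.78) or PBRM1 replicate 2 (-1.40), against 0.423% of all regions in either direction and 0.243% lower. BRD7, also a bromodomain subunit, had 2.3 and 1.98 CPM (log2 fold change -1.33, adjusted p = 0.0755, not called), and PHF10, the PHD-finger subunit of PBAF, had 4.63 and 3.36 CPM (log2 fold change -0.43, adjusted p = 0.834). Wild-type replicates 5 and 6 of set 2 had 3.44 and 3.03 CPM here, lower than the replicates of set 1 that these clones were compared with. The second ARID2 decrease was at chr19:20162691-20163378 in cluster 1, with 10.3 and 11.1 CPM in the knockout and 19.2 and 18.6 CPM in wild type (log2 fold change -0.82, adjusted p = 0.0132). The increase was at chr19:23881819-23882629 in cluster 1, with 8.43 and 6.26 CPM in the knockout and 2.52 and 2.87 CPM in wild type, and was named after its values were seen. The number of ARID2 calls was 1 without either wild-type replicate, 0 without ARID2 replicate 1 and 5 without ARID2 replicate 2.

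The 18 knockouts other than SMARCA4, ARID1A, SMARCC1 and ARID2 together called 17 members, 6.46% of them, against 9.07% of all regions. Of their 37 calls 34 were decreases (91.9%), while decreases were 50.7% of such calls on the rest of chromosome 19 and 44.3% over all regions. These comparisons share wild-type libraries, and 9 of the 34 decreases are of a single region. Leaving out wild-type replicate 1 reduced the 17 to 10, and wild-type replicate 2 reduced it to 11.

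Among the canonical BAF subunits, the ARID1B knockout had 5 members lower and none higher, against 1.46% and 1.76% of all regions. Tested on their own, ARID1B clone 582_5 had no member called, where 0.275% of all regions were, and clone 7-582 had 10, all lower, where 3.19% of all regions were lower and 6.03% higher. BCL7B, a small accessory subunit, had 6 lower, against 0.783% of all regions (1.40% in either direction). BCL7B clone 4278_10 had 1 member lower (0.550% of all regions), and clone 8-4278 had 9 lower and 2 higher (1.33% and 3.50%). Clones 7-582 and 8-4278 belong to set 1 and the other 2 to set 2. Its relative BCL7A had 1 lower, against 0.189% (0.278% higher). The transcription factors BCL11A and BCL11B had 3 and 2 lower, against 0.295% and 0.357% (0.380% and 0.535% higher, 0.893% for BCL11B in either direction). The PHD-finger subunit DPF2 had 2 higher and none lower, against 1.42% and 0.374%. DPF3, its relative, had 2 lower, against 0.0302% (0.0667% in either direction), and DPF1 had none. Among the SMARCD subunits, which link the core to transcription factors, SMARCD1 had 6 lower (0.814%), SMARCD2 had 1 (0.201%) and SMARCD3 had 2 (0.368%). SMARCC2, the paralogue of SMARCC1, had 1 lower (0.0584%). In PBAF, PHF10 had 1 higher and 2 lower (0.148% and 0.243%) and BRD7 had 1 lower (0.312%). BRD9 had 1 lower (0.238%). ACTB, the actin subunit, had no member called, where 1.35% of all regions were called, 0.833% higher and 0.519% lower. DPF1 (0.0515% called, 0.0137% higher and 0.0378% lower) and SMARCA2, the alternative ATPase (0.0742% and 0.160%), also had none. At an unadjusted p under 0.05 those 3 knockouts had 13, 9 and 14 members, and DESeq2 called 0, 1 and 0. An unadjusted cut-off also passes unchanged regions, and these counts are given without the share of all regions at that cut-off. Several of these small counts rest on single libraries: without wild-type replicate 1, BCL7B had 1 call and SMARCD1 had 3, and without wild-type replicate 5, ARID1B and BCL7B had 2 each. BCL11A kept 1 of its 3 without either of its own replicates and 2 without either wild-type replicate, and BCL11B kept 1 of its 2 without either of its own or without wild-type replicate 1. DPF2 lost all its calls without its replicate 1, PHF10 without its replicate 2 and DPF3 without wild-type replicate 2. BRD7 lost its call without wild-type replicate 2 and also without either of its own replicates. No fit that left out 1 library kept the full count of DPF3 or SMARCD1.

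Over all 22 knockouts, 62 members (23.6%) were called at least once, against 29.8% of all regions and 21.9% on the rest of chromosome 19. Of these, 36 were called in the SMARCA4 knockout alone, 10 (3.8%) in 3 or more knockouts, and 2 (0.76%) in both directions. Over all regions, 14826 of 145532 were called in the SMARCA4 knockout alone, 6.42% in 3 or more knockouts and 2.73% in both directions. On the rest of chromosome 19 these were 390 of 3145, 1.91% and 0.223%, the last 2 below the shares of the clusters. The members called most often had 9, 7 and 5 calls, and 43 members had exactly 1. The ratio of the spread between the set 1 clones to that between libraries of a clone had a median of 0.931 over members. It exceeded 2 at 8 members (3.04%), against 6.86% of all regions and 1.84% on the rest of chromosome 19.

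The region called most often was chr19:23299420-23300352 in cluster 1, lower in the knockouts of ARID1B, BCL11A, BCL11B, BCL7A, BRD7, DPF3, PHF10, SMARCD1 and SMARCD3. It had 2.83 and 0.975 CPM in BCL11A knockout libraries (log2 fold change -2.60, adjusted p = 5.35e-10) and 2.24 and 2.41 CPM in SMARCD1 knockout libraries (log2 fold change -2.33, adjusted p = 1.04e-08), against 10.2 and 13.4 CPM in wild type. The knockouts of BCL7A (3.64 and 2.08 CPM), PHF10 (4.34 and 2.02), SMARCD3 (3.54 and 2.93), BCL11B (3.68 and 3.31) and DPF3 (4.14 and 2.94) had log2 fold changes of -1.74 to -2.03. All libraries of the clones just given with CPM lay below every wild-type library of either set, the lowest of which had 6.49 CPM. ARID1B overlapped wild type, with 6.67 and 3.18 CPM in clone 582_5, against 11 and 6.49 CPM in its wild type. Its clone 7-582 had 6.47 and 4.78 CPM. The values formed a range rather than 2 groups. Clones of DPF2 (16.9 and 16.4 CPM) and SMARCA4 (13.7 to 18.8 CPM) were highest, without passing the test. The call was kept with any 1 library left out in the BCL11A, BCL11B, BCL7A, SMARCD1 and SMARCD3 knockouts. It was lost in at least 1 such fit for BRD7, DPF3 and PHF10.

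At chr19:22816732-22817708, also in cluster 1, 2 clones stood far below the rest. SMARCD2 knockout libraries had 1.56 and 2.56 CPM, against 20.7 and 17.3 CPM in wild type (log2 fold change -3.20 ± 0.27, adjusted p = 2.63e-19). SMARCC2 knockout libraries had 4.47 and 4.71 CPM, against 23.8 and 19.5 CPM in the wild type of set 2 (log2 fold change -2.23 ± 0.26, adjusted p = 6.66e-11). SMARCD1 came next with 10.1 and 11.6 CPM (log2 fold change -0.81, adjusted p = 0.0193), and the other clones averaged 13.5 to 26.8 CPM. Both SMARCD2 and SMARCC2 had no other call among the 263 members.

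The region at chr19:58458508-58459486 in cluster 5 was called in 7 knockouts, lower in 4 and higher in 3. Averaged over 2 libraries, 4 clones had 2.12 to 4.48 CPM, 2 had 8.59 and 8.99 CPM, and the other 20 had 13.5 to 19.4 CPM, while wild type had 11.3 and 11.2 CPM in set 1 and 11.2 to 12.5 CPM over both sets. BRD9 knockout libraries had 3.62 and 4.97 CPM (log2 fold change -1.38, adjusted p = 0.000426). DPF3 had a log2 fold change of -1.32 (adjusted p = 0.00357). The other 2 low clones were ARID1B clone 7-582, with 0.954 and 3.28 CPM, and BCL7B clone 8-4278, with 2.44 and 3.07 CPM. The second clones of the same genes were high, at 18.2 and 16.2 CPM in ARID1B clone 582_5 and at 19 and 16.9 CPM in BCL7B clone 4278_10. The clones of a gene therefore lay on opposite sides of wild type. SMARCA4, ARID1A and SMARCC1 knockouts were higher, by 0.68, 0.61 and 0.70 on the log2 scale (adjusted p = 0.00756, 0.0296 and 0.0453). With 1 library left out, the ARID1A call was lost in 4 of 6 fits and the SMARCC1 call in 3 of 4, and the BRD9 call was lost without its replicate 1 (-1.18).

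Clone 582_5 of ARID1B minus clone 7-582, each against the wild type of its own set, gave a difference of log2 fold changes of 2.90 ± 0.38 at the 58.46 Mb region (adjusted p = 8.71e-09). It was one of 3 members called between the ARID1B clones, where 4.97% of all regions were called. The others were the 58.66 Mb region, with a difference of 1.72 (adjusted p = 0.0213), and the 58.4 Mb region, with a difference of 1.64 (adjusted p = 0.00186). At the 58.4 Mb region clone 7-582 had 3.6 and 3.94 CPM, close to the SMARCA4 and ARID1A knockouts, and clone 582_5 had 10.9 and 13.1 CPM. Between the BCL7B clones, 6 members were called, against 4.31% of all regions. The difference of clone 4278_10 minus clone 8-4278 was 2.60 at the 58.46 Mb region (adjusted p = 2.42e-07) and 1.30 at the 20.16 Mb region (adjusted p = 0.0027). The clones of each pair come from different sets of libraries, so clone and set cannot be told apart. For ARID1A, whose 2 clones are both of set 1, the clones differed at none of the 263 regions (0.0598% of all regions).

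**Figure D3:**
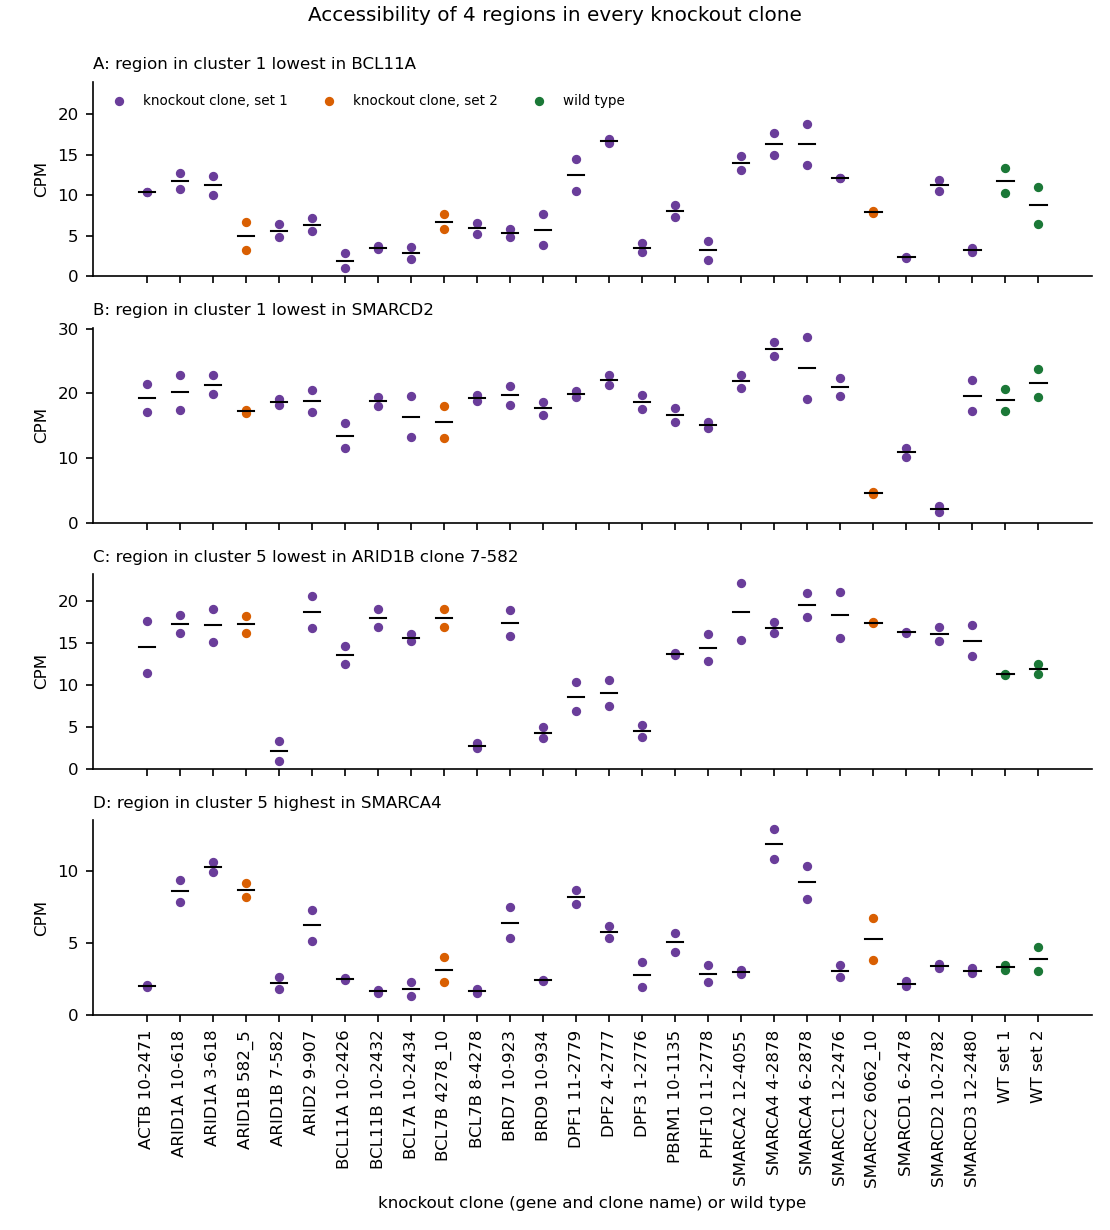
CPM of 4 regions in both libraries of every clone (points; bars mark the mean of 2), with knockout clones on the left and the 2 wild-type groups on the right. Panel A is the region at 23.3 Mb, B the one at 22.82 Mb, C the one at 58.46 Mb and D the one at 58.66 Mb: in B the SMARCD2 and SMARCC2 clones fall to 2.06 and 4.59 CPM on average, and in C the clones of ARID1B, and those of BCL7B, lie on either side of wild type.

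The 20.16 Mb region moved in both directions between knockouts. DPF2 had 37.2 and 27.6 CPM (log2 fold change 0.77, adjusted p = 0.0117) and SMARCC1 had 26.4 and 31.7 CPM (0.62, adjusted p = 0.0384), against 19.2 and 18.6 CPM in wild type. SMARCA4 knockout libraries had 23.1 to 31.6 CPM (log2 fold change 0.59, adjusted p = 0.00595). SMARCD1 had 9.45 and 11.2 CPM (log2 fold change -0.87, adjusted p = 0.00662), near the 10.3 and 11.1 CPM of ARID2. BCL7B clone 8-4278 was lowest, with 8.76 and 8.86 CPM. Each ARID2 and SMARCC1 call here was lost whenever any 1 of its 4 libraries was left out. The DPF2 call was lost in 3 of 4 such fits, with values of 0.54 to 0.97 over the 4.

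At chr19:58609132-58610015 SMARCD1 knockout libraries had 5.36 and 6.46 CPM (log2 fold change -1.32, adjusted p = 4.27e-05) and PHF10 knockout libraries had 7.13 and 9.15 CPM (log2 fold change -0.85, adjusted p = 0.048), against 15.6 and 13.9 CPM in wild type. BCL7B and ARID1B were also lower there, by -0.65 and -0.51 (adjusted p = 0.0109 and 0.0477), and the ARID1B call was lost in 7 of 8 fits that left out 1 library. The 58.74 Mb region, raised in the SMARCC1 knockout, had 11 and 17.1 CPM in PHF10 knockout libraries, against 3.2 and 6.45 CPM in wild type (log2 fold change 1.57, adjusted p = 0.000332). BCL11A, BCL11B, BCL7A and SMARCD3 knockouts had 7.76 to 9.96 CPM at this region without passing the test. DPF2 was highest of all clones at chr19:52598757-52599390, with 9.54 and 9.16 CPM, against 2.14 and 3.82 CPM in wild type (log2 fold change 1.66, adjusted p = 0.00584). This region lies below the median accessibility and was named after its values were seen. In cluster 3, the BCL11A knockout fell at chr19:44575905-44576570 (log2 fold change -1.02, adjusted p = 0.035). It had 5.11 and 4.78 CPM there, against 11.7 and 8.25 CPM in wild type. BCL11B (5.16 and 4.29 CPM) and SMARCD3 (3.83 and 5.27 CPM) were also called lower at that region. At chr19:38422474-38423232 the BCL7B knockout was lower by -0.88 (adjusted p = 0.00621), with 4.18 to 7.32 CPM in its 4 libraries and 8.8 to 11 CPM in the 4 wild-type libraries. That call was lost in 4 of 8 fits that left out 1 library. Clones of other genes averaged 4.33 CPM (SMARCA4 clone 6-2878) to 11.8 CPM (SMARCD3) there.

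**Figure D4:**
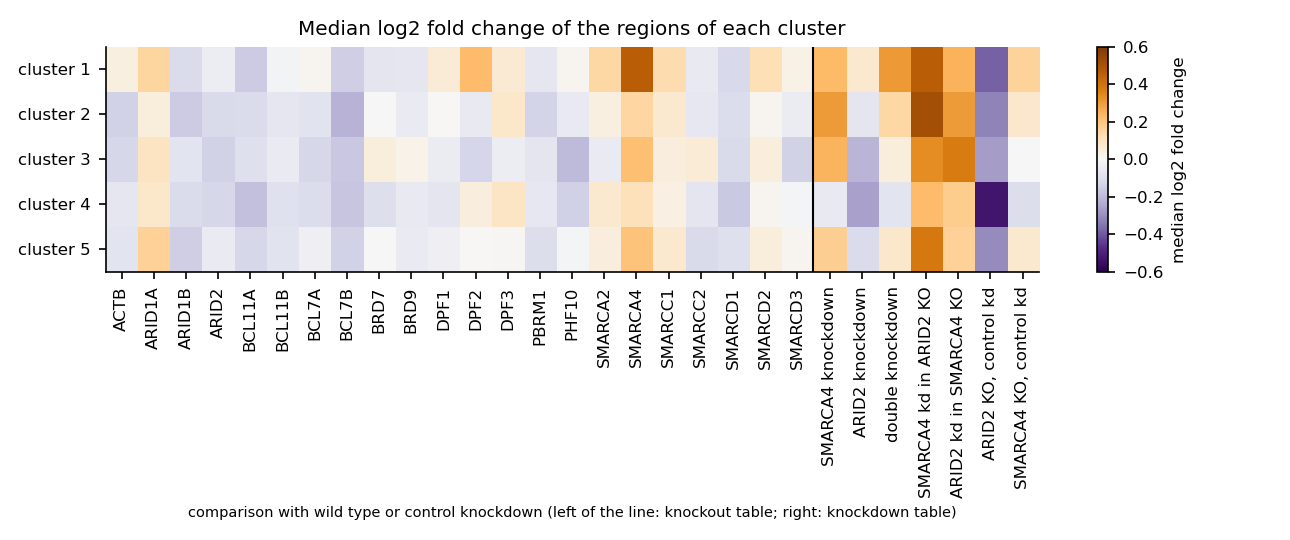
Median log2 fold change of the regions of clusters 1 to 5 in 22 knockouts (left of the line) and 7 comparisons of the knockdown table (right), from purple (lower) to orange (higher). Cluster 1 has its highest knockout-table median, 0.46, in the SMARCA4 knockout, and all 5 clusters are below 0 in the ARID2 knockout with control knockdown (-0.27 to -0.53).

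In the knockdown table few members were called when the replicate number was left out of the fit. Knockdown of SMARCA4 in wild-type cells raised 2 regions and lowered none, 0.76% and 0% of members, against 0.773% and 4.96% of all regions (edgeR, n = 2 libraries each). Both are weak regions of cluster 2. At chr19:38478111-38478612 the knockdown libraries had 3.6 and 6.78 CPM and the control libraries 2.24 and 1.41 CPM (log2 fold change 1.45, adjusted p = 0.0364). At chr19:36532827-36533328 they had 2.95 and 5.13 CPM, against 1.56 and 0.772 CPM in the control (log2 fold change 1.72, adjusted p = 0.0311). Neither was called in the SMARCA4 knockout of the knockout table, and no member was called when either control library or knockdown replicate 2 was left out. Without knockdown replicate 1 there were 3. With the replicate number as a block, SMARCA4 knockdown in wild-type cells had more calls, in both directions, with counts in the last section. In the fit without that block, members had a median log2 fold change of 0.22, against 0.061 over all regions. It was -0.035 without knockdown replicate 1, whose share of counts in the clusters was 0.445%, against 0.371% in replicate 2.

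Double knockdown of SMARCA4 and ARID2 called no member, against 0.618% of all regions higher and 4.00% lower, and 15 members had an unadjusted p under 0.05. ARID2 knockdown in wild-type cells called no region of the genome, and 7 members had an unadjusted p under 0.05. No member was called for SMARCA4 knockdown in ARID2 knockout cells, where 0.195% of all regions were called, and 32 members had an unadjusted p under 0.05. None was called for ARID2 knockdown in SMARCA4 knockout cells (0% of all regions called), with 11 members at that unadjusted cut-off. The ARID2 knockout under control knockdown also had none (0.418% of all regions called), with 32 members at the unadjusted cut-off. An unadjusted cut-off also passes unchanged regions. The unadjusted counts of this paragraph are given without the share of all regions at that cut-off. DESeq2 called none in these 5 comparisons either. With the replicate number as a block, members were called in double knockdown and in the ARID2 knockout under control knockdown. The same held for SMARCA4 knockdown in ARID2 knockout cells, with counts in the last section. The interaction of SMARCA4 knockdown with the ARID2 knockout, and that of ARID2 knockdown with the SMARCA4 knockout, called none, with 6 and 7 members at an unadjusted p under 0.05.

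Medians ran from -0.32 in the ARID2 knockout under control knockdown to 0.39 for SMARCA4 knockdown in ARID2 knockout cells. Both are measured against or from the ARID2 knockout control libraries, in which the clusters held 0.307% and 0.309% of counts, the lowest shares of the table. Wild-type control libraries held 0.344% and 0.365%. The replicate SD of such medians was 0.33 in this table.

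The SMARCA4 knockout appears in both tables, with separate knockout and wild-type libraries. Under control knockdown, 2 members were higher and 3 lower than in wild-type cells, against 1.49% and 8.26% of all regions. More members were called with the replicate number as a block, as given in the last section. The 5 calls were 2 without wild-type replicate 1 and 3 without any of the other 3 libraries in turn. Of the 34 members called higher in the knockout table, 25 had a positive log2 fold change here and 1 was called, where 55.5% of all members were positive. Of the 14 called lower, 12 were negative here and 1 was called. The log2 fold changes of the 2 tables correlated at r = 0.522 over the 263 members and 0.64 over 145423 regions, a description across regions that share libraries. The median of the 34 was 0.12 here and that of the 14 was -0.64.

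**Figure D5:**
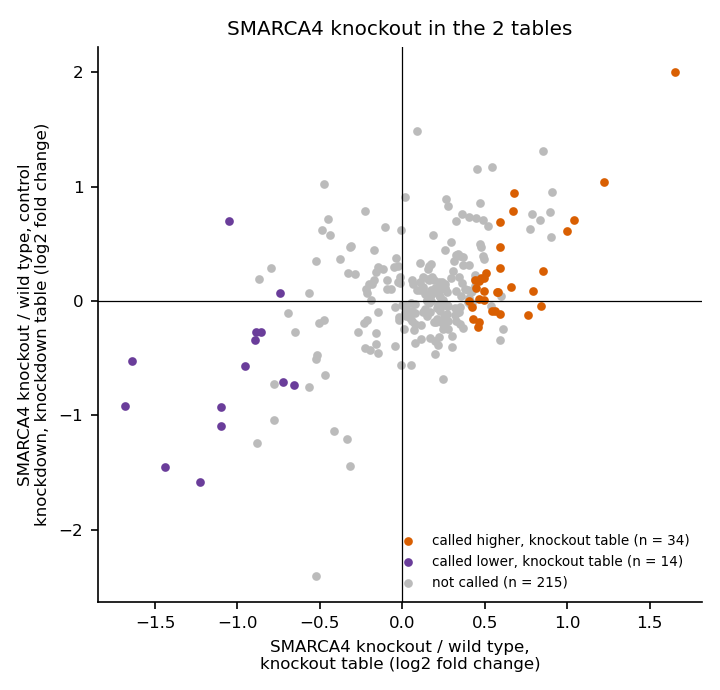
Log2 fold change of the SMARCA4 knockout against wild type for the 263 cluster regions in the knockout table (x axis) and, under control knockdown, in the knockdown table (y axis). Of the 34 regions called higher on the x axis (orange) 25 lie above 0 on the y axis, and of the 14 called lower (purple) 12 lie below 0; the point at the upper right is the 58.66 Mb region.

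The 2 regions called in both tables were the 58.66 and 57.78 Mb regions. The 58.66 Mb region had 12.7 and 13.7 CPM in SMARCA4 knockout libraries under control knockdown, against 3.61 and 2.96 CPM in wild-type cells (log2 fold change 2.00 ± 0.36, adjusted p = 3.05e-05). It had 5.24 and 4.8 CPM after SMARCA4 knockdown in wild-type cells (log2 fold change 0.61, adjusted p = 0.412). In ARID2 knockout cells under control knockdown it had 5.75 and 7.67 CPM (log2 fold change 1.02, adjusted p = 0.283). The 57.78 Mb region had 2.75 and 2.29 CPM in the SMARCA4 knockout, against 8.39 and 6.69 CPM in wild type (log2 fold change -1.58 ± 0.39, adjusted p = 0.00296). This call was lost without wild-type replicate 1 or knockout replicate 2, while that at 58.66 Mb was kept in each such fit. SMARCA4 knockdown gave 5.35 and 5.95 CPM there (log2 fold change -0.43, adjusted p = 0.579). The 58.4 Mb region had 4.99 and 3.91 CPM in the SMARCA4 knockout and 9.17 and 7.72 CPM in wild type, without passing the test (log2 fold change -0.92, adjusted p = 0.119).

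The remaining calls of this comparison were in clusters 2, 3 and 4. The lowest log2 fold change, -2.41, was at chr19:44310890-44311449, with 0.874 and 1.62 CPM in the knockout and 6.63 and 6.69 CPM in wild type (adjusted p = 0.00017). None of the 3 was called in the SMARCA4 knockout of the knockout table, and the 44.31 Mb region was also higher in the wild type of set 2 than in that of set 1 (log2 fold change 1.36).

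The 34 increases of the knockout table were mostly positive after SMARCA4 knockdown as well, 31 of 34 with a median of 0.27, where 73% of all members were positive. The 14 decreases were not mostly negative there, with 4 of 14 below 0 and a median of 0.20. After double knockdown 28 of the 34 were above 0 and 9 of the 14 below 0. For ARID2, the 1 region higher in the knockout was positive and the 2 lower were negative in ARID2 knockout cells of the knockdown table, none of them called. The 58.18 Mb region had 1.47 and 4.23 CPM there, against 4.39 and 3.73 CPM in wild-type cells (log2 fold change -0.52, adjusted p = 0.68), and the 2 groups overlapped. The 23.3 and 22.82 Mb regions had no knockout of BCL11A, SMARCD1, SMARCD2 or SMARCC2 in this table to be compared with. Their wild-type control libraries had 9.46 and 9.52 CPM and 19 and 19.5 CPM, within the range of the wild-type libraries of the knockout table.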

How the data were processed

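Per the submitters' processing notes, Bowtie2 2.2.4, Picard 1.118 and MACS2 2.1.1.20160309 were used on build hg19, with no role given; how regions were merged and reads counted is not given in the sources used here. The deposited tables hold counts per region and library, not scaled by the authors. Another table deposited by the authors holds normalized values on a scale taken as log2, by a method not given, and served as an alternative. Of 74 labelled samples 72 had a column, wild-type replicates 3 and 4 were not analysed here, and 2 columns of samples outside the labels were not used.

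Counts were tested with edgeR 4.0.16 (R 4.3.3): TMM scaling, default expression filter, quasi-likelihood test, Benjamini-Hochberg adjustment over all regions at 0.05, 2-sided. The knockout fit (145532 regions, 28 residual degrees of freedom) set each clone against the wild type of its set; 2 clones of a gene were tested as their mean. The knockdown fit had 145617 regions and 8 residual degrees of freedom. Sets were inferred from the form of the titles. Titles and characteristics differ on the kind of knockdown, so only that word is used. Alternatives used DESeq2 1.42.0, limma 3.58.1 and other scalings and references. The script was tested on simulated data. Counts have no molecular identifiers.

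Named regions were called, at or above the median of all regions in average log2 CPM, and had every knockout library on one side of every control library. They were ranked by log2 fold change (up to 5 per direction for SMARCA4, ARID1A, SMARCC1 and ARID2, 3 for knockdowns, 1 for other comparisons). The strongest region of each cluster and the most often called regions were added. The windows, lists and rules were chosen with earlier results of these data known.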

Additional observations from a re-analysis of the deposited data

Results flagged for a closer look

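In the ARID1A knockout, 1 of 4 libraries stood apart at chr19:58897742-58898836, with 43.3 CPM in replicate 2 of clone 3-618, against 32.1 to 33.5 CPM in the other 3. In the SMARCA4 knockout, 1 of 4 libraries stood apart at chr19:57778495-57779213, with 3.81 CPM in replicate 1 of clone 6-2878, against 1.54 to 1.74 CPM in the others. Such gaps are expected by chance in about 1 of 20 groups.

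The 2 clones of ARID1B and the 2 of BCL7B differed at regions named above. For ARID1B (clone 582_5 minus clone 7-582) the difference of log2 fold changes was 2.90 at the 58.46 Mb region, 1.72 at the 58.66 Mb region and 1.64 at the 58.4 Mb region. For BCL7B (clone 4278_10 minus clone 8-4278) it was 2.60 at the 58.46 Mb region and 1.30 at the 20.16 Mb region. Each was called by edgeR's test of the difference.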

How the results depend on the processing

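In the SMARCA4 knockout 48 members were called, and 121 (106 higher, 15 lower) with the mean of the other set 1 knockouts as the reference; 87.6% of those were higher, as were 85.3% of the 34 called from the authors' normalized values, against 70.8% of the 48. ARID1A had 11 calls, 26 with all wild-type libraries pooled, 50 against the other knockouts and 22 from the authors' values, with 36.4% higher in the first and 46.2%, 82.0% and 72.7% in the alternatives. SMARCC1 had 5 calls, 11 with pooled wild type and 12 against the other knockouts. ARID2 had 3 calls, 11 with pooled wild type, 16 against the other knockouts and 7 from the authors' values. The 18 knockouts other than these 4 called 17 members, 26 with pooled wild type and 52 from the authors' values. SMARCA4 knockdown had 2 calls, and 1 with DESeq2. Leaving out 1 library gave 13 to 44 calls for SMARCA4, 5 to 11 for ARID1A, 1 to 4 for SMARCC1, 0 to 5 for ARID2, 10 to 18 for the other 18, 0 to 3 for SMARCA4 knockdown and 0 to 0 for double knockdown. Other scaling factors and no filter moved none of these counts by over 1.5 times. The alternative counts of this paragraph are given without the share of all regions.

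The decrease at chr19:36737300-36738336 in the SMARCA4 knockout was 0.0098 in the authors' values; the cause was not tested. In those values 30 of 41 named results kept their call and 10 lost it. Of 226 fits that left out 1 library, 154 kept the call of a named region, 72 lost it and none turned its direction.

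The labels give same-numbered libraries of different groups nothing in common but that number. Deviations of same-numbered libraries correlated at a median of 0.024 over 276 pairs of groups in the knockout table, with 33 over 0.1, and at a median of 0.265 (0.0618 to 0.443) over 28 pairs in the knockdown table, with 25 over 0.1. With the replicate number as a block, SMARCA4 knockdown had 11 calls (9 higher, 2 lower, where 2.62% and 7.94% of all regions were) and double knockdown 3 (2 higher, 1 lower, where 1.87% and 6.77% were). SMARCA4 knockdown in ARID2 knockout cells had 23, all higher, where 1.65% of all regions were higher and 1.21% lower. Under control knockdown, the ARID2 knockout had 11 (1 higher, 10 lower, where 0.481% and 2.18% were) and the SMARCA4 knockout 11 (4 higher, 7 lower, where 3.16% and 10.7% were). In the knockout table the block gave 49 calls for SMARCA4 and left ARID1A, SMARCC1 and ARID2 at 11, 5 and 3.

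With 88 to 164 reads for the median member in set 1, the smallest change called in the SMARCA4 knockout was 0.41 on the log2 scale.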
